A study of Mus musculus with 8 samples.

Results

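The 6 genes described here, Ogn, Ptgds, Gjb2, Fn1, Ly6c1 and Car4, are known markers of the meninges or of blood vessels. They were found in the authors' deposited table through a match of their positions and strand with gene models of GENCODE M21 (GRCm38), exact for all 6, out of 2372 genes in the table. The table came from RNA sequencing of mPFC tissue (medial prefrontal cortex) from adult male mice on a C57Bl/6J background, otherwise naive. The 4 mice of the CaKO group carried CamK2A-Cre and 2 floxed alleles of Gpr158, and the 4 littermate controls carried the floxed alleles without Cre. The CamK2A promoter drives Cre in excitatory neurons of the forebrain, which lose the floxed gene, that of an orphan receptor, and cells of meninges and vessels are not among the known targets of this Cre. The study asked which transcripts differ when glutamate neurons lack GPR158.

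The meninges are the connective tissue membranes around the brain, made of fibroblasts and an epithelium-like barrier layer, and a thin sheet of them stays on the cortical surface unless it is stripped. Brain capillaries are lined by endothelial cells that form the blood-brain barrier, rest on a basement membrane and carry transporters and surface enzymes on the side of the blood. Ogn encodes osteoglycin, a small leucine-rich proteoglycan of connective tissue, Ptgds the prostaglandin D2 synthase of the brain, which is secreted and also carries lipophilic molecules, and Gjb2 the gap junction protein connexin 26. Fn1 encodes fibronectin, which joins the extracellular matrix to integrins, Ly6c1 a small surface protein with a lipid anchor found on brain endothelium, and Car4 a carbonic anhydrase anchored to the luminal surface of capillaries. None is strictly specific: Ptgds is also made by oligodendrocytes and the choroid plexus, Gjb2 by astrocytes, and Fn1 by endothelial as well as fibroblast-like cells.

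In the authors' deposited table, Ogn, Gjb2 and Ptgds rose in CaKO and Fn1, Ly6c1 and Car4 fell, each at an adjusted p below 0.05. Over all 12938 genes that entered the adjustment, 1.27% rose and 1.97% fell. The genes were chosen by their known cell types and with these deposited fold changes and adjusted p-values in view, so the count of 6 and the directions describe the choice. The per-library values are normalised counts, that is reads divided by 1 factor per library, and they were analysed for the 4 CaKO libraries. The controls enter through the deposited fold change alone. For each gene a control level was computed from the CaKO mean and that fold change, and it is called the implied control level. An interval for the fold change was computed from the deposited p on the assumption of a Wald test. In bulk tissue, fewer cells of a type and less RNA per cell cannot be told apart.

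The CaKO libraries held between 2832931 and 3183638 reads over the listed genes, which are part of each library. The table lists genes with an unadjusted p below 0.05, and a gene said here to have no value is one outside the listed genes of the adjustment. Gpr158 has 0 rows, so the genotype labels were not checked against the targeted transcript. Each library is 1 mouse.

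Levels per kilobase of exon placed the genes in an order that spans a wide range. Ptgds stood first at 3668.7 ± 318.3 normalised counts per kb in CaKO (SD, n = 4), rank 24 by this level among the 2372 listed genes. Ly6c1 followed at 377.2 ± 31.6 per kb (SD, n = 4) and Car4 at 139.0 ± 13.3 per kb (SD, n = 4). Below them came Ogn at 104.6 ± 8.3, Fn1 at 68.3 ± 11.6 and Gjb2 at 55.7 ± 3.8 normalised counts per kb (SD, n = 4). Neighbours in this order did not overlap between libraries except for Fn1, from 56.4 to 84.1 per kb, and Gjb2, from 51.6 to 60.2 per kb. At the implied control levels Fn1 stood at 95.1 and Ogn at 61.0 per kb, so these neighbours stood in the opposite order there, while the other 4 kept their places.

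**Figure D1:**
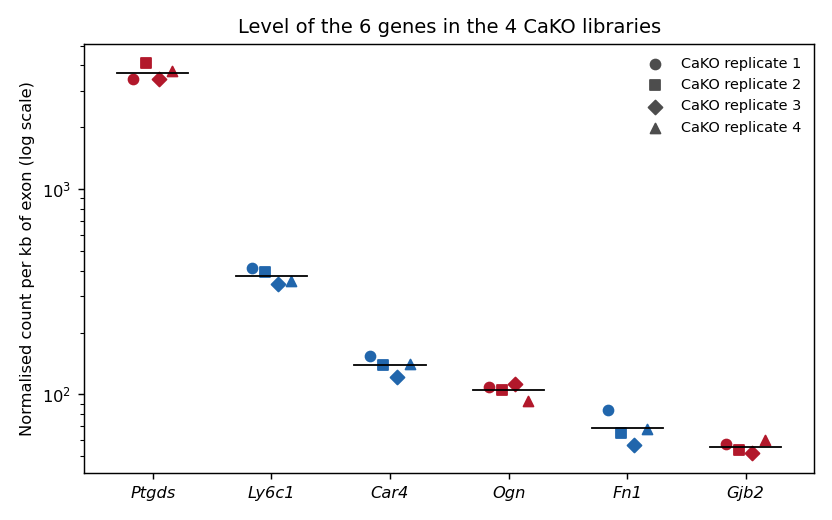
Normalised count per kilobase of exon (log axis) of the 6 genes in each of the 4 CaKO libraries, with a bar at the mean. Red symbols are genes that rose and blue symbols genes that fell per the authors' deposited table, and Ptgds lies far above the others, at 3418.1 to 4090.4 per kb.

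Among the genes that rose, the proteoglycan gene Ogn had the largest fold change. Ogn (ENSMUSG00000021390.6, chr13:49608046-49624501, plus strand, 2566 bp of exon in 7 blocks) had 279.4, 268.5, 287.3 and 238.6 normalised counts in CaKO replicates 1 to 4. Replicate 4 was the low one, and every library lay above the implied control level of 156.4, by 0.61 to 0.88 on the log2 scale. The log2 fold change per the authors' deposited table was 0.78, or 1.72-fold (implied 95% interval 1.31 to 2.25-fold, adjusted p = 0.00877), the 19th largest of 164 increases. The SD of 21.3 was close to the 16.5 that counting error alone gives for these reads.

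Gjb2, the connexin, was the least abundant of the 6. Gjb2 (ENSMUSG00000046352.7, chr14:57098600-57104702, minus strand, 2406 bp of exon in 2 blocks) had 137.7, 129.3, 124.3 and 144.8 normalised counts in CaKO replicates 1 to 4. These libraries were close together, with an SD of 9.1 against a counting error of 11.6, and they stood 0.56 to 0.78 above the implied control level of 84.2 on the log2 scale. The authors' deposited table gives it a log2 fold change of 0.67, or 1.59-fold (implied 95% interval 1.22 to 2.08-fold, adjusted p = 0.0307). The call ended without CaKO replicate 1 (0.66) or replicate 4 (0.63). It also ended when the standard error alone was widened to that of the smaller group and the fold change was kept, so the loss does not single out these libraries.

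Ptgds, the prostaglandin D2 synthase, rose least of these genes in proportion and most in reads. Ptgds (ENSMUSG00000015090.13, chr2:25466709-25470046, minus strand, 1649 bp of exon in 7 blocks) had 5636.4, 6745.1, 5651.5 and 6165.8 normalised counts in CaKO replicates 1 to 4. Replicate 2 was the highest and replicates 1 and 3 were nearly equal at the low end, all of them above the implied control level of 4462.3. The log2 fold change per the authors' deposited table was 0.44, or 1.36-fold (implied 95% interval 1.15 to 1.6-fold, adjusted p = 0.0218). With 23942 reads in all, counting error was 78.2, whereas the SD between mice was 524.8. Without CaKO replicate 2 the log2 fold change was 0.38 and the call ended.

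Car4, the capillary carbonic anhydrase, had the smallest p of the 6 and the largest decrease. Car4 (ENSMUSG00000000805.18, chr11:84957786-84966044, plus strand, 1966 bp of exon in 10 blocks) had 303.5, 273.5, 239.6 and 276.1 normalised counts in CaKO replicates 1 to 4. Replicate 1 was the highest and replicate 3 the lowest, and the highest stood at -0.59 relative to the implied control level of 457.2 on the log2 scale. The authors' deposited table lists a log2 fold change of -0.74, which is 59.8% of control (implied 95% interval of the decrease 1.42 to 1.97-fold, adjusted p = 1.46e-06). By unadjusted p it ranked 6 among the 2372 listed genes, and by size it was the 50th of 255 decreases. Its log2 fold change stayed between -0.8 and -0.68 with each CaKO library left out, and the call held each time.

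Ly6c1, the endothelial surface protein, fell by less. Ly6c1 (ENSMUSG00000079018.10, chr15:75044018-75048830, minus strand, 1677 bp of exon in 6 blocks) had 689.5, 665.3, 580.6 and 595.0 normalised counts in CaKO replicates 1 to 4. Replicates 1 and 2 lay above replicates 3 and 4, and all were under the implied control level of 830.3. In the authors' deposited table its log2 fold change was -0.39, or 76.2% of control (implied 95% interval of the decrease 1.15 to 1.49-fold, adjusted p = 0.00481). The call held with each CaKO library left out, at log2 fold changes from -0.44 to -0.35.

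Reads of Ly6c1 can come from stretches that its neighbour Ly6c2 also has. The coding sequences compared, from an annotated transcript each of Ly6c1 and Ly6c2, are both 393 bases long and differ at 9 of them. Thus 97.7% of the bases are the same, with an identical run of up to 188 bases. Across all 7 annotated Ly6c1 transcripts, 178 of 1756 distinct stretches of 100 bases, the read length, occur exactly in another gene (10.14%), 159 of them in Ly6c2. The first 90 coding bases are shown because 6 of the 9 differences lie there. They are in GENCODE M21 transcripts on the minus strand of GRCm38, in exons between chr15:75047450-75048511 for Ly6c1 and chr15:75110608-75111667 for Ly6c2, with an intron in between, and capitals mark the bases that differ.
Ly6c1: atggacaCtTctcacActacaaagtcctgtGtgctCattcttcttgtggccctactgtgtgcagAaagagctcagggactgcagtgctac
Ly6c2: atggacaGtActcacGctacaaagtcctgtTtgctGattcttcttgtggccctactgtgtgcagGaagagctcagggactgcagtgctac
Ly6c2 has no value in the table, and the treatment of reads that fit both genes is not given in the sources used here. For Ogn, Ptgds, Gjb2 and Car4, 0 stretches of this length occur in another gene, and for Fn1 1.2% do, all of them in Apol7d.

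Fn1, the fibronectin gene, varied most between the CaKO mice. Fn1 (ENSMUSG00000026193.15, chr1:71585520-71653200, minus strand, 11685 bp of exon in 45 blocks) had 983.0, 760.5, 659.1 and 790.9 normalised counts in CaKO replicates 1 to 4. Replicate 1 stood 1.49-fold above replicate 3, and the coefficient of variation was 17.0%, against 6.8% to 9.6% for the other 5 genes. Relative to the implied control level of 1111.4, replicate 1 stood at -0.18 on the log2 scale and replicate 3 at -0.75. The log2 fold change per the authors' deposited table was -0.48, or 71.8% of control (implied 95% interval of the decrease 1.16 to 1.67-fold, adjusted p = 0.023). The call ended without CaKO replicate 2 (-0.45) or replicate 3 (-0.4), and without replicate 1 the log2 fold change was -0.59. The antisense gene Apol7d covers 2.5% of the exon bases of Fn1 on the opposite strand, and strand use in the counting is not given in the sources used here.

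**Figure D2:**
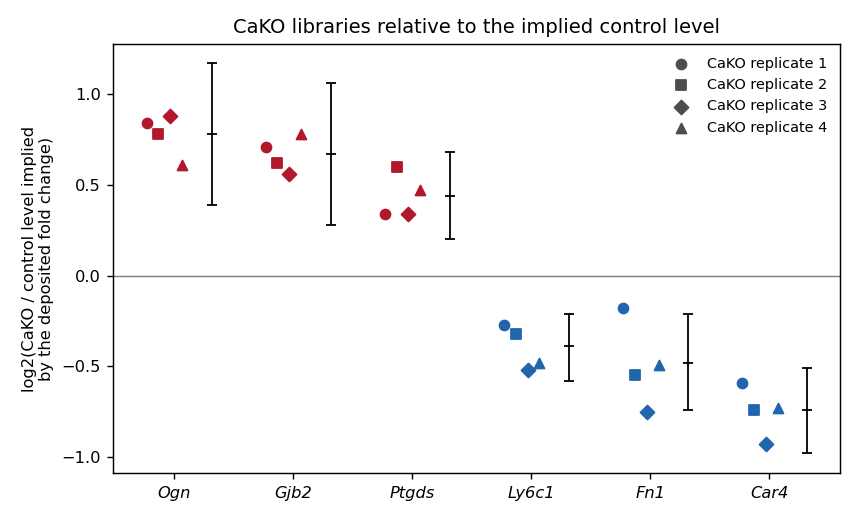
log2 ratio of each CaKO library to the control level implied by the deposited fold change, for the 6 genes. Symbols are replicates, and the black bar to the right is the deposited log2 fold change with its implied 95% interval. All 4 libraries of each gene lie on the same side of 0, closest for Fn1 in replicate 1 at -0.18.

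The fold changes of the 6 lay on both sides of the medians of the genes called in the same direction. The median log2 fold change per the authors' deposited table was 0.41 for the 164 genes that rose and -0.53 for the 255 that fell. Ogn and Gjb2 lay above the first of these medians, Ptgds at 0.44 close to it, Car4 at -0.74 beyond the second, and Fn1 and Ly6c1 short of it. None of the 6 was among the 29 called genes that passed 2-fold per the authors' deposited table.

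**Figure D3:**
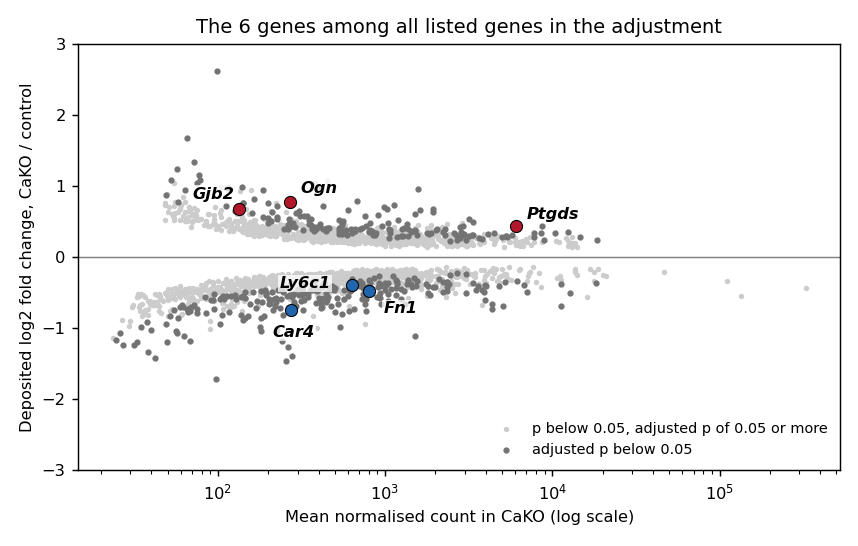
Log2 fold change per the authors' deposited table against the mean normalised count in CaKO (log axis) for the 2047 listed genes of the adjustment. Dark points have an adjusted p below 0.05, and the 6 named genes lie within the band of other called genes of like abundance.

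The 4 genes of the meningeal list among the 6 moved in both directions, and few of the other markers had a value. Of 28 markers of meninges and fibroblasts, 3 rose and 2 fell at an adjusted p below 0.05 per the authors' deposited table, with 2 more lower at an unadjusted p. Those that rose were Ogn, Gjb2 and Ptgds, which were chosen with these values in view, so the rises of the list are no support for a direction. Of the 24 other markers, 3 were lower at an unadjusted p (12.5%), near the 8.68% of all genes tested. None of the 24 was higher, where 7.14% of all genes tested were, so these counts give no direction to the list. Besides Fn1, the stress-induced nuclear protein gene Nupr1 fell, with a log2 fold change of -0.98 per the authors' deposited table (34.7 ± 7.9 normalised counts in CaKO, SD, n = 4, adjusted p = 0.0222). Mgp, an inhibitor of calcification in vessel walls and connective tissue, was at -0.69 (adjusted p = 0.0565) and Igfbp2, which binds insulin-like growth factors, at -0.49 (adjusted p = 0.0983) per the authors' deposited table. The median over these 3, all of them lower, was -0.69. It is not comparable with the -0.22 over all 2047 listed genes, which include genes higher and genes lower in CaKO. The fibroblast collagens Col1a1, Col1a2 and Col3a1, the proteoglycans Dcn and Lum and the transporters Slc6a13 and Slc22a6 were among the 21 markers with no value. The lists were written with earlier results of these data known.

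Endothelial markers that had a value were all lower. Of 28 markers, 3 fell and 0 rose per the authors' deposited table, and 8 were lower and 0 higher at an unadjusted p below 0.05. Car4 and Ly6c1 were chosen with their values in view. Without them, 1 of 26 fell and 6 were lower (23.1%), against 1.97% that fell and 8.68% lower of all genes tested. Because this list, too, was written with earlier results of these data known, its shares are a description and no independent support. The median log2 fold change of the 6 was -0.33, over genes that passed the unadjusted p only, and is not the shift of the list. The gene that fell was Mfsd2a, the transporter that carries lysophospholipids across the blood-brain barrier. It averaged 383.2 ± 28.0 normalised counts in CaKO (SD, n = 4), with a log2 fold change of -0.45 per the authors' deposited table (adjusted p = 0.0178). The glucose transporter gene Slc2a1, at 2075.3 ± 292.7 normalised counts (SD, n = 4), had a log2 fold change of -0.3 (adjusted p = 0.213) per the authors' deposited table. The phosphatase gene Ptprb was at -0.28 (adjusted p = 0.0983), the VEGF receptor gene Flt1 at -0.19 (adjusted p = 0.208), the transcription factor gene Sox17 at -0.35 (adjusted p = 0.251) and the sialomucin gene Emcn at -0.49 (adjusted p = 0.262) per the authors' deposited table. The other 20 markers, which include the defining genes Cldn5, Pecam1 and Cdh5, had no value. A gene tested at an unadjusted p of 0.05 or more has none, so these markers are not thereby unmeasured. They show no listed decrease in the counts used here. Foxq1, also among the 20, is an exception: it was listed at a log2 fold change of -0.91 per the authors' deposited table but left out of the adjustment. None of the 13 mural cell markers and none of the 12 markers of choroid plexus and ependyma had a value. Most genes tested had none either: 8.68% had a value on the lower side and 7.14% on the higher side. Lists this short can lack values at such shares, so their absence is no contrast with endothelium.

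Genes of the basement membrane and of fibronectin binding were lower with Fn1 where they had a value. Of 22 genes, Fn1 fell, 7 of the 21 others were lower at an unadjusted p below 0.05 (33.3%, against 8.68% of all genes tested) and 0 were higher (against 7.14%) per the authors' deposited table. The median log2 fold change of these 7 was -0.47. It covers only genes that passed the unadjusted p, so it is not the shift of the list. As the list was written with earlier results of these data known, its shares are a description and no independent support. Col4a1, a chain of collagen IV, averaged 523.8 ± 127.0 normalised counts in CaKO (SD, n = 4) at a log2 fold change of -0.47 (adjusted p = 0.0849) per the authors' deposited table. The laminin gene Lamc1, at 443.1 ± 119.9 normalised counts (SD, n = 4), was also at -0.47 (adjusted p = 0.0794), and Nid1, which links laminin to collagen IV, at -0.51 (adjusted p = 0.111) per the authors' deposited table. Sparc, a collagen-binding matrix protein, was at -0.32 (adjusted p = 0.128) and the integrin gene Itgb1 at -0.26 (adjusted p = 0.244) per the authors' deposited table. Nid2 and Lamb1 completed the set at -0.62 (adjusted p = 0.277) and -0.27 (adjusted p = 0.278) per the authors' deposited table. Apart from Fn1 none passed the adjustment.

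The families of the other members gave no further call. Among 12 small leucine-rich proteoglycans, Ogn alone had a value, and the family members near it on chromosome 13, Omd (15.2 kb away) and Aspn (40.5 kb), had none. Of 11 connexins counted, Gjb2 alone had a value, and it rose per the authors' deposited table. Gjb6, which lies 18.6 kb from Gjb2, and the astrocyte connexin gene Gja1 had no value. Of 19 genes for prostaglandin synthesis, transport and receptors, Ptgds rose. Of the 18 others, 2 were higher at an unadjusted p below 0.05, where 7.14% of all genes tested were. These were enzymes of prostaglandin E2 synthesis that did not pass, Ptges2 at 0.25 (adjusted p = 0.142) and Ptges3 at 0.24 (adjusted p = 0.27) per the authors' deposited table. Hpgds, the other prostaglandin D2 synthase, had no value.

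Of 18 genes of the Ly6 family, Ly6c1 fell. Of the 17 others, 2 were lower at an unadjusted p below 0.05 (11.8%), near the 8.68% of all genes tested. The neuronal nicotinic receptor modulator Lynx1 was at -0.31 (adjusted p = 0.0601) and the complement inhibitor Cd59a at -0.56 (adjusted p = 0.149) on the log2 scale per the authors' deposited table. Ly6a, another endothelial surface protein, 46.0 kb from Ly6c1, had no value. Among 20 carbonic anhydrases and bicarbonate transporters, Car4 fell, Car7 and Car11 were lower and Slc4a10 was higher at an unadjusted p. Of the 19 genes besides Car4, 10.5% were thus lower, near the 8.68% of all genes tested, of which 7.14% were higher. Car7, a neuronal isoform, was at -0.36 (adjusted p = 0.146), Car11 at -0.32 (adjusted p = 0.191) and the neuronal bicarbonate transporter gene Slc4a10 at 0.21 (adjusted p = 0.246) per the authors' deposited table.

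**Figure D4:**
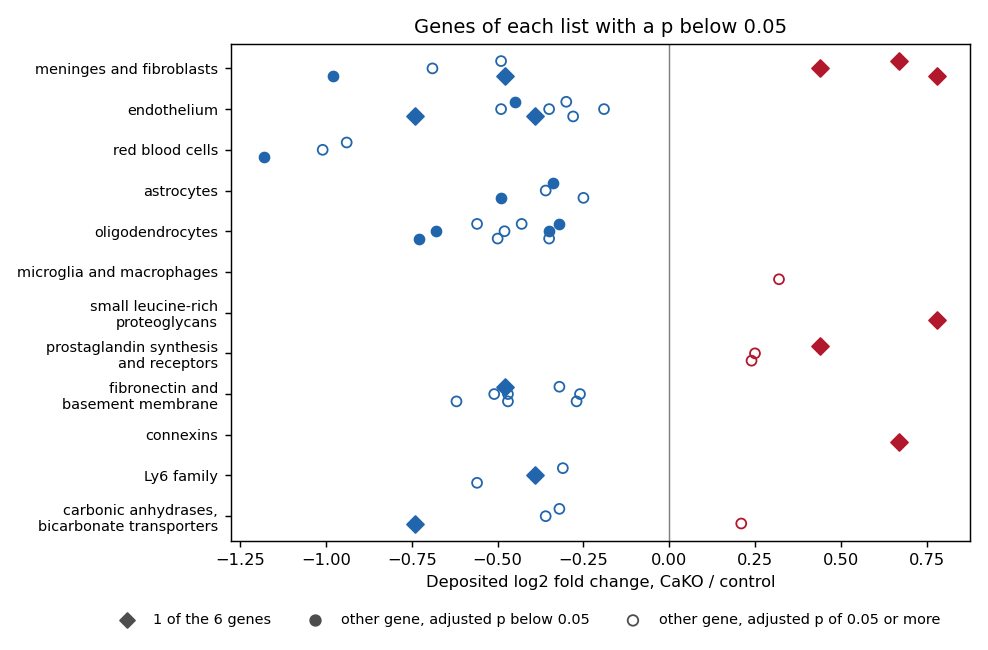
Log2 fold change per the authors' deposited table (x axis) of each listed gene, by gene list (y axis). Diamonds are the 6 named genes, filled symbols have an adjusted p below 0.05 and open circles do not. The endothelial and basement membrane genes lie left of 0, and the meningeal genes lie on both sides, from -0.98 to 0.78.

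Markers of other cells moved beside these genes, and their part in the results was not tested. Of all genes tested, 1.97% fell and 8.68% were lower at an unadjusted p, and the counts that follow are to be read against these shares. Of 5 red blood cell markers, 1 fell and 3 had a value, all lower. The alpha-globin gene Hba-a1, at 241.1 ± 43.0 normalised counts in CaKO (SD, n = 4), had a log2 fold change of -1.18 per the authors' deposited table (adjusted p = 5.04e-12). Oligodendrocyte markers, which mark cells that also make Ptgds, had 4 that fell and 9 of 12 with a value, all lower. The median of these 9 on the log2 scale was -0.48 per the authors' deposited table. It covers only markers that passed the unadjusted p. These markers were lower and Ptgds was higher, and which cells the change of Ptgds came from was not tested. Astrocyte markers, beside Gjb2, had 2 that fell and 4 of 12 with a value, also all lower, from -0.49 to -0.25. Among 12 markers of microglia and macrophages, Trem2 alone had a value, a log2 fold change of 0.32 (adjusted p = 0.302) per the authors' deposited table.

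Between the CaKO libraries, the genes that fell had the same highest and the same lowest library. Fn1, Ly6c1 and Car4 were each highest in replicate 1 and lowest in replicate 3, at 0.13 to 0.32 and at -0.26 to -0.12 relative to their own mean on the log2 scale. Between these, replicate 2 stood above replicate 4 for Ly6c1 and below it for Fn1 and Car4. Of the 11 other listed genes of the endothelial and basement membrane lists with a CaKO mean of at least 100, 7 were highest in replicate 1 (63.6%) and 4 in replicate 4 (36.4%). Of all 1810 listed genes with such a mean, 21.8% were highest in replicate 1 and 36.7% in replicate 4. Replicate 3 was lowest for 5 of the 11 and replicate 2 for another 5. The genes that rose had no highest library in common: Ogn was highest in replicate 3, Ptgds in replicate 2 and Gjb2 in replicate 4. The sum of the 9 listed oligodendrocyte markers was highest in replicate 1, at 45789.7 against 37258.2 to 38300.2 in the other libraries, and the part of tissue makeup in these orders was not tested. With the libraries rescaled to the same sum over the listed genes, Fn1 and Car4 were still highest in replicate 1 and lowest in replicate 3, at 927.0 and 706.2 for Fn1 and 286.2 and 256.7 for Car4. Ly6c1 was then highest in replicate 2, at 659.4, and lowest in replicate 4, at 594.1. With the libraries rescaled by the median ratio of genes that did not pass, Ly6c1 was highest in replicate 1, at 691.6, and lowest in replicate 4, at 581.4.

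**Figure D5:**
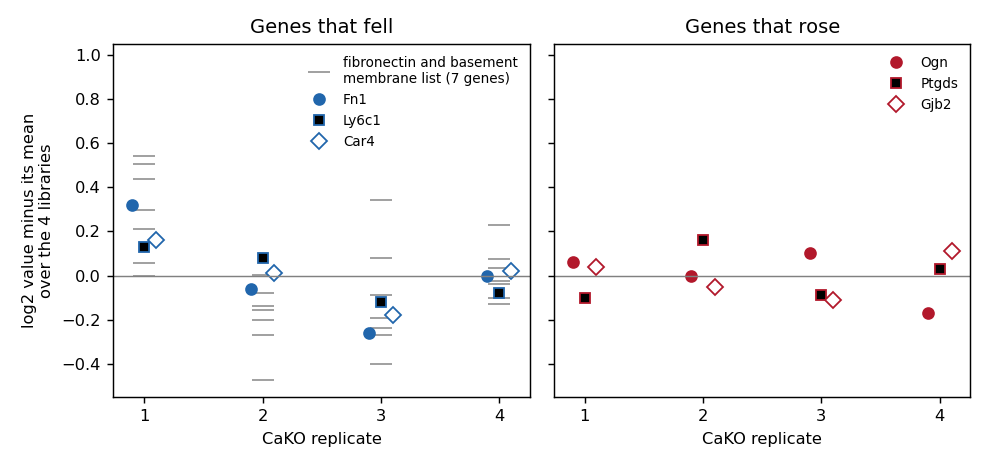
Log2 normalised count of each gene minus its mean over the 4 CaKO libraries, by replicate, for the genes that fell (left, blue) and those that rose (right, red). Grey ticks are the other 7 listed genes of the fibronectin and basement membrane list, most of which are highest in replicate 1, as Fn1 is at 0.32.

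The genes whose values followed each member most closely were sought among 1796 other listed genes, by the root mean square difference of centred log2 values over the 4 CaKO libraries. For Fn1 the likest was Sparc, at 0.04, then Lcp1 at 0.042 and Atp5e at 0.047, and 4 genes in all lay within 0.05. The other members had more genes within 0.05, from 23 for Ptgds to 60 for Gjb2. Their likest genes were also closer, from 0.008 for Ly6c1 to 0.018 for Car4. The measure is not scaled to the spread of a gene, and Fn1 varied most. The small number of genes near Fn1 therefore does not make Sparc a distinctive match. The likest genes of the other members are weakly distinguished as well. These were Clstn2, Tmem132d and Tbr1 for Ly6c1 and Ciao2b, Lysmd2 and Slc41a1 for Car4. For the genes that rose they were Dyrk1a, Vxn and Borcs5 for Ogn, Atp2b2, AI464131 and Snx11 for Ptgds, and Aar2, Hsp90b1 and Arhgef2 for Gjb2. Only 4 libraries enter this measure.

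The sequences just before the start sites of the members are unlike in composition. RefSeq start sites (GRCm38.p6) were found for 5 of the 6 genes, and the 250 bases before them were searched on both strands for 3 motifs. These were TATAAA, known as the TATA box, then the GC box GGGCGG, and as the third the letters CCAAT of the box of that name. Over all 32851 such windows, 12.4% hold the first, 32.7% the second and 33.8% the third. The windows of 2 genes that rose, Ogn and Gjb2, and of both endothelial genes that fell are printed to show this difference, with capitals for the motifs. They are chr13:49607765-49608014 (plus strand) for Ogn, chr14:57104703-57104952 (minus strand) for Gjb2, chr15:75048838-75049087 (minus strand) for the first start of Ly6c1 and chr11:84957504-84957753 (plus strand) for Car4.
Ogn: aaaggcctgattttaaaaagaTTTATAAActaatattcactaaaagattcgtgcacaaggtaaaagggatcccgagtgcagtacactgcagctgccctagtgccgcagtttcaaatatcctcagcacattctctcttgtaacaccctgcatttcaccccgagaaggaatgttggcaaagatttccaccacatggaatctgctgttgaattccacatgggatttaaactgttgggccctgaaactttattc
Gjb2: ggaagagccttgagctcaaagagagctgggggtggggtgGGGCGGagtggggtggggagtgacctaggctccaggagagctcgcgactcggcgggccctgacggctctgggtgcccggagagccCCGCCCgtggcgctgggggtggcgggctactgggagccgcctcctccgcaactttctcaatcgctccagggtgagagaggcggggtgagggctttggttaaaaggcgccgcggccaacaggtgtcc
Ly6c1: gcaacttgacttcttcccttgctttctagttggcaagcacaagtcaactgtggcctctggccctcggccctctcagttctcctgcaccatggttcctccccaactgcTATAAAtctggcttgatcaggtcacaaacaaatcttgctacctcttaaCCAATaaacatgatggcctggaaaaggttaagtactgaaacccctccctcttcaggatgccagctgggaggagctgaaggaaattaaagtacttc
Car4: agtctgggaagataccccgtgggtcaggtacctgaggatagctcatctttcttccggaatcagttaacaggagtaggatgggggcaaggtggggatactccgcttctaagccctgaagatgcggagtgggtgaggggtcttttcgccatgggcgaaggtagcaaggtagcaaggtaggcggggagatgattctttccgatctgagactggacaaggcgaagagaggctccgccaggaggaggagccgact
The window of Ogn is 42.0% G and C and holds TATAAA on both strands, in overlapping matches, while that of Gjb2 is 69.2% G and C and holds the GC box at 2 places. The window of the first start of Ly6c1 has TATAAA and CCAAT, at 48.4% G and C. That of its second start, chr15:75048664-75048913, has none of the 3, at 53.2%. Car4 has none of the 3 motifs, at 56.4%, as does Ptgds at 58.4%. The median over all windows is 52.4%. Neither the genes that rose nor those that fell share a motif of these 3, and a match is a description of the letters, not of a binding site.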

How the data were processed

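RNA from the mPFC of 4 CaKO and 4 control mice was sequenced as poly-A-selected, paired-end libraries, per the labels' protocols. The submitters' processing notes name TopHat2 2.0.12 (alignment to GRCm38), HTSeq 0.6.1 (counts per gene) and DESeq2 1.30.1. The authors' deposited signal values for the CaKO libraries are read counts divided by 1 factor per library: 100.0% were whole multiples of 1 step within a tolerance of 0.01. The log2 fold changes, p-values and adjusted p-values are the authors', as deposited. Positive values mean higher in CaKO, as the 18 genes without a read in CaKO all carry negative ones. Adjusted p-values below 1 follow the Benjamini-Hochberg method over 12938 genes, and 325 genes listed at 1 were treated as left out. Calls use an adjusted p below 0.05.

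Values of single control libraries were not analysed here, so no model was fitted. Of the 2372 genes, 2266 matched GENCODE M21 exactly, and list counts use these. To leave out a CaKO library, the fold change was recomputed against the implied control level with the standard error taken from the p and widened for 3 libraries, and a call was kept where p was at most 0.00162. The calculations were tested on simulated data and used Python 3.11.15, NumPy 2.4.6, pandas 2.3.3 and SciPy 1.17.1. The rule for named genes took the 6 members, list genes with a value in the adjustment, the 3 genes likest to each member and near-identical copies. Most glial and globin list genes are given as counts, and 1 list gene is not reported here and was left out of the list counts. The members and the lists were chosen with earlier results of these data known.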

Additional observations from a re-analysis of the deposited data

How the results depend on the processing

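The 3 members that rose came to 1 (Ogn) at an adjusted p below 0.01, and to 0 with a Benjamini-Yekutieli adjustment of the deposited p-values, although all 3 have an unadjusted p below 0.05. The 3 that fell came to 2 in both cases. With each CaKO library left out in turn, 2 to 3 of those that rose and 2 to 3 of those that fell kept their calls. Leaving out a library ended the calls of Gjb2 (without replicate 1 or 4), Fn1 (without replicate 2 or 3) and Ptgds (without replicate 2), and those of Ogn, Ly6c1 and Car4 held. The 48 recomputed fold changes also covered 2 rescalings of the libraries, the median in place of the mean and a pseudocount of 1. All of them rested on the implied control level, and all 4 CaKO libraries of each member lay on the same side of it. The direction, which held in all 48, could therefore hardly change and is no test of the calls. Mean levels moved by less than 1 SD in all 12 rescaled values, where the scaling factors lay between 0.933 and 1.06, so little movement was possible. Over the 209 genes of all lists together, 7 were higher and 39 lower. Including genes left out of the adjustment, overlap matches or a minimum CaKO mean of 10 gave 7 to 8 and 39 to 40. For comparison, 7.14% of all genes tested were higher and 8.68% lower. The pooled lists contain the 6 members, chosen with their values in view, and markers of glia and red blood cells. The pooled counts are therefore no measure of meningeal or vascular genes alone. Leaving out a control, another test and another filter of all genes were not run, because values of single control libraries were not analysed here. No paired analysis was possible because a pair needs both groups, and the values by library used here are those of the 4 CaKO libraries. Gjb2, with 530 reads over the 4 CaKO libraries, is the member most limited by depth. Total library depth is unknown.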

Other observations

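Among the listed genes left out of the adjustment were 2 of the list genes, both weakly expressed. Slco2a1, a prostaglandin transporter of endothelial and other cells, had 48.2, 55.1, 33.8 and 28.1 normalised counts in CaKO replicates 1 to 4, with a log2 fold change of 0.67 per the authors' deposited table. Foxq1, a transcription factor gene of brain endothelium, had 34.2, 22.0, 21.9 and 22.9 normalised counts, with a log2 fold change of -0.91 per the authors' deposited table. Their deposited adjusted p-values are 1, so neither counts as a call.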
